A study of Mus musculus with 10 samples.

Results

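Transcript counts of 10 mouse genes that restrain Wnt signaling or report its activity were examined in 10 RNA sequencing libraries from mammary gland cells. The genes were chosen by name and found by identifier, 10 of the 55487 genes counted. Listed as secreted antagonists were *Dkk2* (ENSMUSG00000028031, chr3:132085292-132180304), *Dkk3* (ENSMUSG00000030772, chr7:112116017-112159057), *Sfrp1* (ENSMUSG00000031548, chr8:23411502-23449632), *Sfrp2* (ENSMUSG00000027996, chr3:83766321-83774316) and *Wif1* (ENSMUSG00000020218, chr10:121033960-121100650). The inhibitor at the membrane was *Apcdd1* (ENSMUSG00000071847, chr18:62922231-62961179). The inhibitors inside the cell were *Nkd1* (ENSMUSG00000031661, chr8:88521354-88594884), *Nkd2* (ENSMUSG00000021567, chr13:73818534-73847631), *Axin2* (ENSMUSG00000000142, chr11:108920349-108950783) and *Ctnnbip1* (ENSMUSG00000028988, chr4:149518236-149566437), all on mouse build GRCm38. *Dkk3* and *Nkd2* lie on the minus strand and the other 8 genes on the plus strand. The study compared mice that lack C/EBPβ, a basic leucine zipper transcription factor, in macrophages with mice that keep it. All mice were 10-wk-old diestrus females that carried floxed *Cebpb* alleles on a BALB/c background, and *Cebpb*ΔM mice also carried Cre recombinase under the *Csf1r* promoter, which the wild-type (WT) mice did not. Mammary epithelial cells (MECs), left after removal of cells with markers of other lineages, gave 2 *Cebpb*ΔM libraries (1 and 3) and 2 WT libraries (1 and 3). Macrophages, pulled from dissociated glands by the surface protein F4/80, gave 4 *Cebpb*ΔM libraries (4 to 7) and 2 WT libraries (4 and 5).

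Wnt proteins bind Frizzled receptors and LRP5 or LRP6 coreceptors and thereby keep β-catenin from destruction, so that it can enter the nucleus and switch on genes with TCF and LEF factors. Dkk2 acts on the coreceptors, and the study calls it a Wnt agonist. No action on the coreceptors is assumed here for Dkk3, which is listed by its family. Sfrp proteins and Wif1 bind the Wnt ligand outside the cell. Apcdd1 is a membrane glycoprotein that blocks the ligand and the coreceptor, Nkd1 and Nkd2 bind Dishevelled in the cytoplasm, Axin2 is a scaffold of the complex that degrades β-catenin, and Ctnnbip1 (also called ICAT) keeps β-catenin from TCF. *Axin2*, *Nkd1* and *Apcdd1* are themselves switched on by β-catenin in many tissues, which makes them feedback genes. In the mammary gland, Wnt signals are known to maintain stem and progenitor cells of the basal layer.

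Total counts of the 4 MEC libraries ran from 25310926 to 27008166, and those of the 6 macrophage libraries from 16935000 to 20174722, so that the floor of 3 counts stood for 0.111 to 0.119 and 0.149 to 0.177 CPM (counts over the total of the library). These limits cover counting error only. *Cebpb* itself was counted 69 and 42 times in the *Cebpb*ΔM MEC libraries and 25 and 28 times in the WT MEC libraries. In macrophages *Cebpb* had 16, 13, 5 and 4 counts in *Cebpb*ΔM 4 to 7 and 13 and 15 in WT 4 and 5. It did not separate the genotypes, as *Cebpb*ΔM 4 and 5 had as many counts as WT. Counts this low, in libraries that also hold RNA of other cells, cannot show whether a label is right or wrong. Every direction between genotypes in macrophages given below is therefore one between libraries labeled C/EBPb knockdown and libraries labeled wild type. The name *Cebpb*ΔM for the former is that of the study's paper. Macrophage markers summed to 31.2 to 46.5 CPM in MECs and 3749 to 9025 CPM in macrophage libraries, and all 9 were above 0 in the latter. However, the macrophage libraries also carried 8 basal markers at 816 to 3168 CPM and 6 luminal markers at 4950 to 9256 CPM. They had 8 fibroblast markers at 3459 to 7817 CPM and 5 endothelial markers at 663 to 1498 CPM. The MEC libraries were mixed as well, with the same fibroblast markers at 5299 to 6500 CPM. In MECs the endothelial markers were at 55.6 to 82.9 CPM. The 4 nerve and Schwann cell markers were at 213 to 318 CPM in MECs and 60.9 to 178 CPM in macrophage libraries. In a bulk library, fewer cells of a type and less RNA per cell cannot be told apart. No source used here ties the libraries to separate animals, so the *P*-values measure the spread between these libraries.

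Promoter sequence of RefSeq on GRCm38.p6 was used for 7 of the 10 genes, which leaves out *Dkk3*, *Sfrp1* and *Apcdd1*. A single window is shown for each of 3 genes, the first start for *Ctnnbip1*, with the 240 bases that end 10 bases before the annotated transcript start, because *Nkd1* and *Ctnnbip1* had the largest differences between genotypes in MECs and *Sfrp2* was the only gene of the 7 with a match to a C/EBP motif. Capitals mark a match to CTTTG, the core of the TCF and LEF motif, or to TTGCATAA, a form of the C/EBP motif, on either strand, and the 3 genes lie on the plus strand.
*Nkd1*, chr8:88527383-88527622: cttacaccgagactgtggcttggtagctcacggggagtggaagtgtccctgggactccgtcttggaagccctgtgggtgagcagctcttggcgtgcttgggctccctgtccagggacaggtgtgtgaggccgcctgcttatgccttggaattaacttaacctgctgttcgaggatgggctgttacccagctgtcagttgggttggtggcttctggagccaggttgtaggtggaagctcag
*Ctnnbip1*, chr4:149517991-149518230: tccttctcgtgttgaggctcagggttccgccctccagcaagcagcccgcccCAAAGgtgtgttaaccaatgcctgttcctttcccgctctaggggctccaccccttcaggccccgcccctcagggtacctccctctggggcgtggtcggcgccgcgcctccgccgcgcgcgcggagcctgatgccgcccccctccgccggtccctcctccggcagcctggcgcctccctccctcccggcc
*Sfrp2*, chr3:83766071-83766310: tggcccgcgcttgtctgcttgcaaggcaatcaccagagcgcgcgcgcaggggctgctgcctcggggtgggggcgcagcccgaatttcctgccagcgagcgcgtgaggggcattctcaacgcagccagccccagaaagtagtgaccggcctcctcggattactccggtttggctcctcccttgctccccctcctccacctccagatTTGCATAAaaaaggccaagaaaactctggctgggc
The *Nkd1* window belongs to a RefSeq start 6279 bases inside the gene as the authors annotated it, and it held none of the motifs searched. In *Ctnnbip1*, CTTTG was found once, on the minus strand (CAAAG), 199 to 195 bases before the start, and in *Sfrp2* TTGCATAA was found 45 to 38 bases before the start. CTTTG was present in windows of 3 genes (*Ctnnbip1*, *Dkk2* and *Wif1*) and in 47.4% of 32851 promoter windows of this length, so a match to it is common. TTGCATAA was present in 0.679% of them. The longer forms CTTTGAA (4.35% of all windows) and CTTTGAT (3.10%), which contain CTTTG, and the C/EBP forms TTGCGCAA (0.161%) and TTGCAAAA (0.956%) were found in none of the 7 genes. A second RefSeq start of *Ctnnbip1* (window chr4:149544867-149545106), not printed, held none of the motifs. These matches describe the letters of the windows and were not tested as binding sites.

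In MECs, the largest differences between the genotypes were those of *Nkd1* and *Ctnnbip1*, which had higher levels in both *Cebpb*ΔM libraries than in either WT library. No gene of the 10 passed the main test, the quasi-likelihood (QL) test of edgeR, at a threshold of 0.05 for *P*-values adjusted over the whole table by Benjamini and Hochberg's (BH) method, although *Nkd1* and *Ctnnbip1* did with other tests. *Dkk2*, *Dkk3* and *Sfrp1* had lower levels in both *Cebpb*ΔM libraries than in either WT library. Genes entered the test if they had at least 300 nt of exon and over 1 CPM in at least 2 libraries of the comparison, which 9 of the 10 genes did in MECs. Of these 9, 0 passed at an adjusted *P* of 0.05, against 0.0510% of 15698 genes tested. At an unadjusted *P* under 0.05 there were 3 (*Nkd1*, *Ctnnbip1* and *Dkk2*), against 5.54% of all genes. The genotypes did not overlap for 5 of them, against 28.7% of all genes, and 5 of the 9 had a positive log2 fold change. The median log2 fold change of the 9 was 0.20, against −0.0080 for all genes tested.

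**Figure D1:**
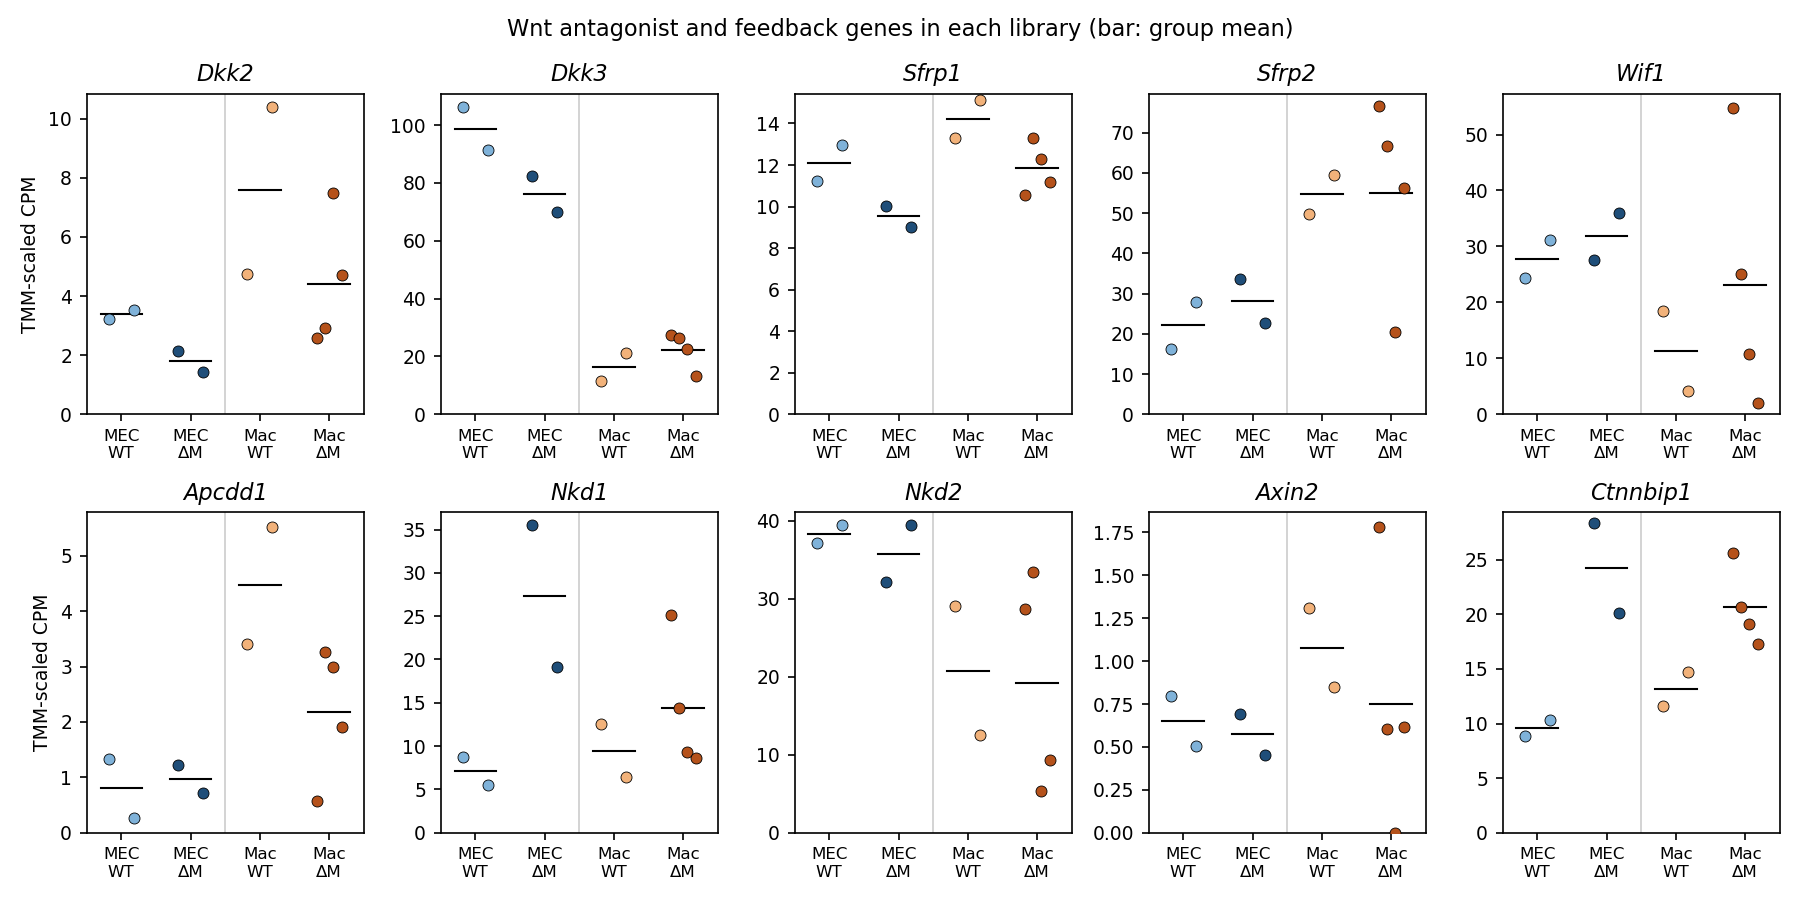
Level of each gene in each library, in TMM-scaled CPM on a linear axis from 0, by cell type and genotype (ΔM, CebpbΔM). Points are libraries and bars are group means. *Nkd1* and *Ctnnbip1* in MECs lie at 19.2 CPM or more in CebpbΔM and at 10.4 CPM or less in WT.

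Among the secreted antagonists in MECs, *Dkk2* was at 2.15 and 1.44 CPM in *Cebpb*ΔM 1 and 3 and at 3.23 and 3.53 CPM in WT 1 and 3. These CPM, like those below, carry the trimmed mean of M-values (TMM) scaling. Its log2 fold change, *Cebpb*ΔM against WT, was −0.91 ± 0.39 (SE; 95% confidence interval −1.77 to −0.052; adjusted *P* = 0.828). *Dkk3*, the divergent member of the Dickkopf family, was the most abundant of the 10 genes per length in MECs. It was at 82.4 and 69.8 CPM in *Cebpb*ΔM and 106 and 91.3 CPM in WT (log2 fold change −0.38 ± 0.21, adjusted *P* = 0.9996). *Sfrp1* was at 10.02 and 9.03 CPM in *Cebpb*ΔM and 11.2 and 13.0 CPM in WT (−0.35 ± 0.27). For all 3 genes the lower group was *Cebpb*ΔM, and the test called none of them. *Sfrp2* and *Wif1*, in contrast, overlapped between the genotypes. *Sfrp2* was at 33.7 and 22.6 CPM in *Cebpb*ΔM and 16.3 and 27.8 CPM in WT, and *Wif1* was at 27.7 and 36.04 CPM in *Cebpb*ΔM and 24.4 and 31.2 CPM in WT. Their log2 fold changes were 0.35 ± 0.30 and 0.20 ± 0.25.

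*Apcdd1* was low in MECs, at 1.23 and 0.721 CPM in *Cebpb*ΔM and 1.33 and 0.272 CPM in WT, which are 32, 19, 35 and 7 counts. The WT libraries were farther apart from each other than the genotype means, and the log2 fold change was 0.27 ± 0.67.

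*Nkd1*, which restrains Dishevelled, was at 35.5 and 19.2 CPM in *Cebpb*ΔM 1 and 3 and at 8.70 and 5.51 CPM in WT 1 and 3, a mean of 27.3 ± 11.6 against 7.11 ± 2.26 (SD, n = 2 in each). The lowest *Cebpb*ΔM library was above the highest WT library, and the fitted fold was 3.84 (log2 fold change 1.94 ± 0.35, 95% confidence interval 1.18 to 2.71, adjusted *P* = 0.0767). The adjusted *P* was 1.70e-04 with edgeR's likelihood ratio test, which the study's methods name, and 7.09e-05 with DESeq2, with a range of 6.18e-05 to 0.904 over 12 alternatives. It was also under 0.05 in the QL test without *Cebpb*ΔM 3 or without WT 1 (2.39e-04 and 7.62e-05), where the remaining library of that genotype is assumed to vary like the other genotype. Its paralog *Nkd2* showed no such separation. *Nkd2* was at 32.2 and 39.4 CPM in *Cebpb*ΔM and 37.1 and 39.4 CPM in WT, and its log2 fold change was −0.10, with a 95% confidence interval from −0.58 to 0.39.

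*Ctnnbip1*, which holds β-catenin away from TCF, was at 28.4 and 20.1 CPM in *Cebpb*ΔM and at 8.86 and 10.4 CPM in WT (24.2 ± 5.88 against 9.61 ± 1.06, SD, n = 2). Again both *Cebpb*ΔM libraries were above both WT libraries. The fitted fold was 2.52 (log2 fold change 1.33 ± 0.27, 95% confidence interval 0.73 to 1.94, adjusted *P* = 0.115). The adjusted *P* was 0.00408 with the likelihood ratio test, 0.00331 with DESeq2 and 0.00407 in the QL test without *Cebpb*ΔM 3, with a range of 0.00331 to 0.904 over 12 alternatives. *Axin2*, the feedback gene most often read as a sign of β-catenin activity, stood at 18 and 12 counts in *Cebpb*ΔM and 21 and 13 counts in WT. At 0.455 to 0.798 CPM it was below the filter, so that the main test gave no value for it in MECs.

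In the libraries labeled as macrophages all 10 genes entered the test and none passed it. The count at an adjusted *P* of 0.05 was 0 of 10, and it was 0 of 17772 (0%) for all genes, while the likelihood ratio test and DESeq2 called 138 and 201 genes overall and 0 of the 10. *Ctnnbip1* was the 1 gene with an unadjusted *P* under 0.05, against 9.76% of all genes. The genotypes did not overlap for 3 genes (*Ctnnbip1* higher, *Sfrp1* and *Apcdd1* lower in *Cebpb*ΔM), against 18.7% of all genes. The log2 fold change was positive for 5 of the 10, with a median of −0.043 against 0.0041 for all genes tested.

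*Ctnnbip1* was at 25.6, 20.7, 19.1 and 17.3 CPM in *Cebpb*ΔM 4 to 7 and at 11.6 and 14.7 CPM in WT 4 and 5. All 4 *Cebpb*ΔM libraries were above both WT libraries, with a log2 fold change of 0.65 ± 0.26 (95% confidence interval 0.071 to 1.23, adjusted *P* = 0.482). Over the 15 alternatives its log2 fold change stayed between 0.49 and 0.84 and its adjusted *P* between 0.334 and 0.702. *Nkd1* was at 25.1, 14.4, 9.37 and 8.60 CPM in *Cebpb*ΔM and 12.5 and 6.42 CPM in WT. The WT libraries lay within the span of the *Cebpb*ΔM libraries apart from WT 5, which was the lowest (log2 fold change 0.62 ± 0.49, adjusted *P* = 0.730). This value was 0.20 without *Cebpb*ΔM 4, 0.21 without WT 5 and 1.17 without WT 4. *Nkd2* was at 28.6, 33.4, 5.32 and 9.28 CPM in *Cebpb*ΔM and 29.1 and 12.5 CPM in WT. *Cebpb*ΔM 4 and 5 and WT 4 formed the upper values and the other 3 libraries the lower ones, irrespective of genotype (log2 fold change −0.098 ± 0.64). *Axin2* had 34, 12, 0 and 10 counts in *Cebpb*ΔM and 25 and 17 in WT. Its 0 in *Cebpb*ΔM 6 allows a level of up to 0.157 CPM, and its log2 fold change was −0.49 ± 0.89.

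Of the secreted antagonists in macrophage libraries, *Wif1* varied most. It was at 54.7, 25.1, 10.8 and 1.98 CPM in *Cebpb*ΔM 4 to 7 and at 18.5 and 4.23 CPM in WT 4 and 5, a 27.6-fold range. The log2 fold change of 1.05 ± 0.96 (adjusted *P* = 0.777) was 0.20 without *Cebpb*ΔM 4, 0.34 without WT 5 and 2.46 without WT 4. *Dkk2* was at 2.56, 2.91, 7.49 and 4.70 CPM in *Cebpb*ΔM and 4.76 and 10.4 CPM in WT, with overlapping genotypes. *Dkk3* was at 27.5, 26.2, 22.7 and 13.1 CPM in *Cebpb*ΔM and 11.4 and 21.3 CPM in WT, again with overlap. Their log2 fold changes were −0.80 ± 0.50 and 0.46 ± 0.36. Single WT libraries moved both, to −0.12 without WT 5 and −1.25 without WT 4 for *Dkk2*, and to 0.98 without WT 5 and 0.080 without WT 4 for *Dkk3*. *Sfrp1* was the steadiest, at 10.6 to 13.3 CPM in *Cebpb*ΔM and 13.3 and 15.1 CPM in WT, so that the groups touched without overlap (−0.26 ± 0.24). *Sfrp2* was at 76.7, 66.7, 20.5 and 56.1 CPM in *Cebpb*ΔM and 49.7 and 59.6 CPM in WT. *Cebpb*ΔM 6 alone was low, and the genotype means were 55.0 ± 24.5 and 54.6 ± 6.95 CPM (SD, n = 4 and 2). *Apcdd1* was at 0.576, 3.26, 2.995 and 1.92 CPM in *Cebpb*ΔM, all below the 3.40 and 5.53 CPM in WT (log2 fold change −1.03 ± 0.55, adjusted *P* = 0.582).

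**Figure D2:**
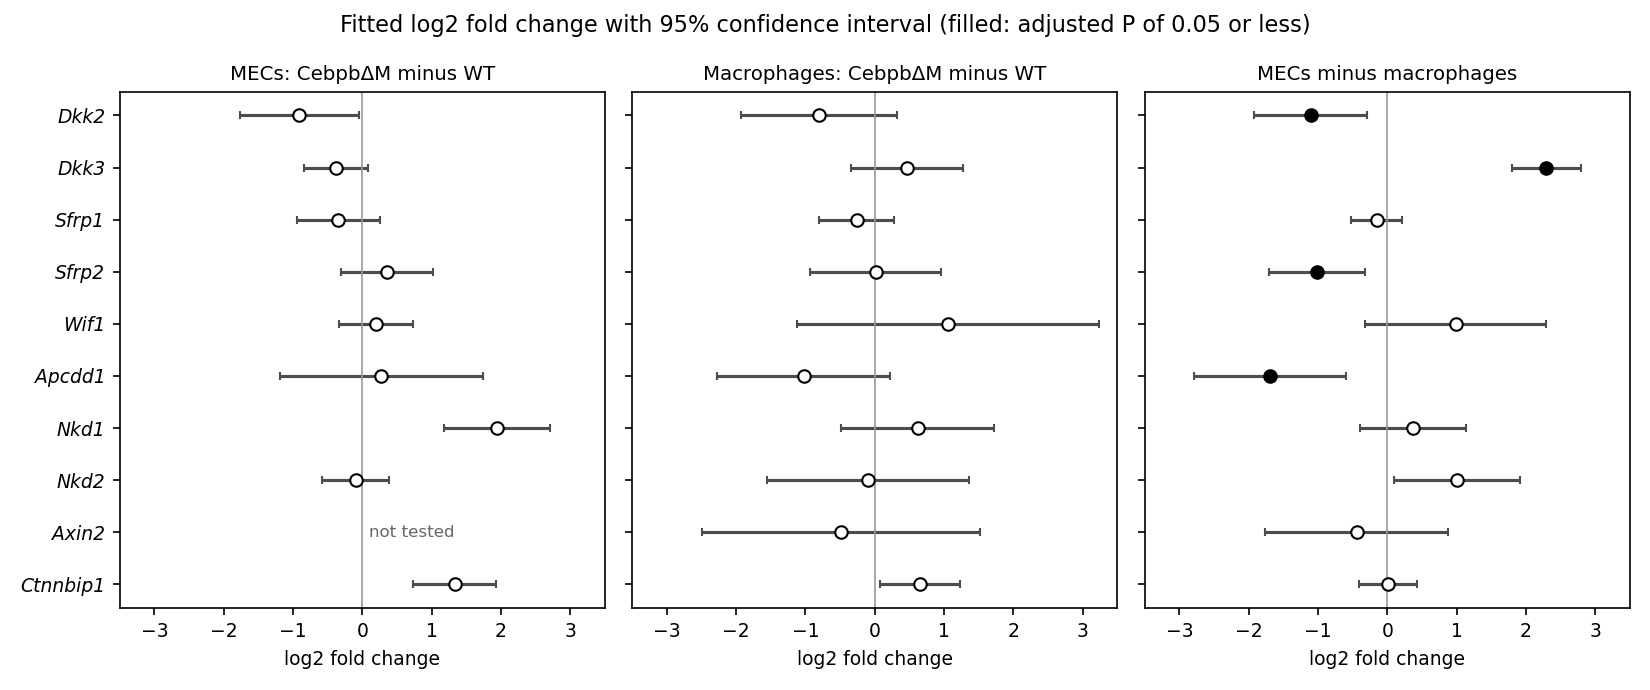
Fitted log2 fold change of each gene with its 95% confidence interval, for CebpbΔM minus WT in MECs (left) and in macrophages (middle) and for MECs minus macrophages (right). Filled points, for *Dkk2*, *Dkk3*, *Sfrp2* and *Apcdd1* in the right panel, have an adjusted P of 0.05 or less.

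An interaction term over all 10 libraries tested whether genotype differences were unequal between MECs and macrophages. None of the 10 genes passed, nor did any of 18323 genes (0%), and at an unadjusted *P* under 0.05 there were 0 of the 10 genes against 5.25% of all genes. The likelihood ratio test and DESeq2 called 53 and 27 genes overall and also 0 of the 10. *Dkk3* had the smallest *P*, with a log2 fold change in MECs minus that in macrophages of −0.88 ± 0.45 (adjusted *P* = 0.953). For *Nkd1* this difference was 1.29 ± 0.70 (95% confidence interval −0.24 to 2.82), and for *Ctnnbip1* it was 0.64 ± 0.38 (−0.19 to 1.47). The intervals contain 0 as well as differences larger than the effects in MECs themselves for *Nkd1* and *Ctnnbip1*.

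The cell types were compared over the same 10 libraries, with 4 MEC and 6 macrophage libraries. *Dkk3* was higher in MECs than in macrophage libraries, whereas *Dkk2*, *Sfrp2* and *Apcdd1* were lower. Thus 4 of the 10 genes passed the test, against 47.4% of all genes, of which 21.2% were higher in MECs and 26.1% in macrophage libraries. *Dkk3* was at 71.5 to 113 CPM in MECs and 10.9 to 26.7 CPM in macrophage libraries, on the common TMM scale of both cell types, and the ranges did not overlap. Its log2 fold change, MECs against macrophage libraries, was 2.30 ± 0.23 (adjusted *P* = 6.62e-06), and it was called under each of the 18 alternatives. *Sfrp2* was at 17.4 to 35.7 CPM in MECs and 20.1 to 74.6 CPM in macrophage libraries (−1.02 ± 0.32, adjusted *P* = 0.0200). *Dkk2* was at 1.48 to 3.70 CPM in MECs and 2.50 to 9.95 CPM in macrophage libraries (−1.11 ± 0.38, adjusted *P* = 0.0293). *Apcdd1* was at 0.284 to 1.42 CPM in MECs and 0.560 to 5.28 CPM in macrophage libraries (−1.70 ± 0.50, adjusted *P* = 0.0151). The ranges of these 3 genes overlapped, and their calls depended on single libraries: without macrophage WT 5 or without MEC *Cebpb*ΔM 3 none of the 3 passed, without MEC WT 1 *Apcdd1* alone of them passed, and without MEC WT 3 *Sfrp2* alone. Without MEC *Cebpb*ΔM 1 the call of *Dkk2* was lost (adjusted *P* = 0.0544). Within WT libraries *Dkk3* and *Apcdd1* passed, and within *Cebpb*ΔM libraries *Dkk3* alone, while 5151 and 6743 of the 18323 genes passed in these fits.

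*Nkd2* did not overlap between the cell types either, with 34.1 to 41.3 CPM in MECs and 5.21 to 32.4 CPM in macrophage libraries. Its log2 fold change of 1.004 ± 0.42 had an adjusted *P* of 0.0659, which was 0.0344 with DESeq2 and under 0.05 in the QL test without macrophage *Cebpb*ΔM 4, *Cebpb*ΔM 5 or WT 4. *Wif1* had a log2 fold change of 0.99 ± 0.60 (adjusted *P* = 0.196) and passed without macrophage *Cebpb*ΔM 4. The differences of *Nkd1*, *Axin2*, *Sfrp1* and *Ctnnbip1* were between −0.44 and 0.38 and did not pass. For *Ctnnbip1*, at 0.0068 ± 0.19, the 95% confidence interval of −0.41 to 0.42 bounds only the difference averaged over the genotypes. This difference was −0.31 within WT libraries and 0.33 within *Cebpb*ΔM libraries. Cell type, the way cells were isolated and the replicate numbers cannot be told apart in this comparison.

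Per kilobase of exon, *Dkk3* had the highest mean level in MECs, at 27.3 ± 5.16 CPM per kb (SD, n = 4), and its range lay apart from that of the next gene. *Wif1* (12.9 ± 1.93), *Sfrp2* (12.2 ± 3.66), *Nkd2* (8.04 ± 0.671), *Ctnnbip1* (6.35 ± 3.44), *Nkd1* (3.96 ± 3.14) and *Sfrp1* (2.60 ± 0.424) followed, each with a range that overlapped its neighbor's. *Dkk2* (0.735 ± 0.279) stood apart from the genes above and below it, and *Axin2* (0.117 ± 0.0323) and *Apcdd1* (0.0726 ± 0.0408) overlapped at the bottom. In macrophage libraries *Sfrp2* was highest, at 24.7 ± 8.66 CPM per kb (n = 6), followed by *Wif1* (7.68 ± 7.79), *Ctnnbip1* (6.31 ± 1.73), *Dkk3* (5.88 ± 1.96), *Nkd2* (3.95 ± 2.41), *Sfrp1* (2.80 ± 0.345), *Nkd1* (2.71 ± 1.43) and *Dkk2* (1.43 ± 0.771), all with overlapping neighbors. *Apcdd1* (0.221 ± 0.122) and *Axin2* (0.151 ± 0.109) were again lowest and apart from the rest.

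**Figure D3:**
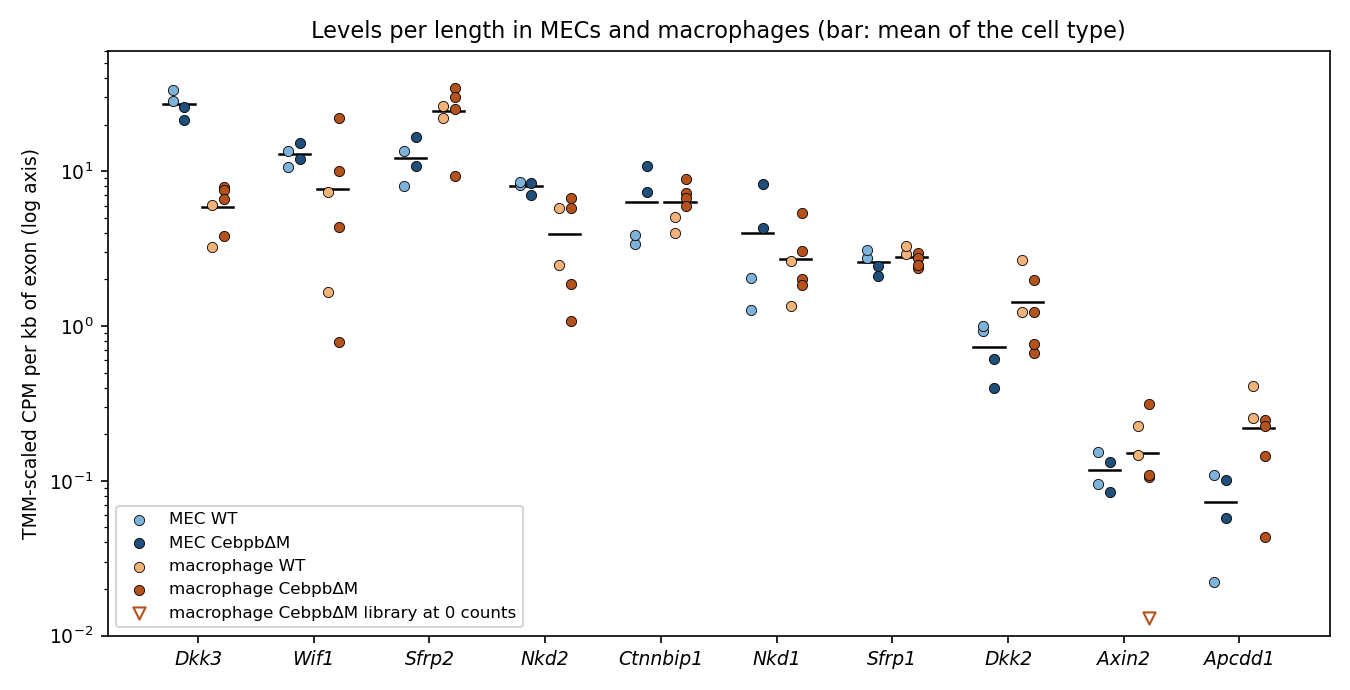
Level of each gene per kilobase of exon, in TMM-scaled CPM per kb on a log axis, in MEC (blue) and macrophage (orange) libraries. Points are libraries and bars are means of a cell type, and the open triangle is the macrophage CebpbΔM library in which *Axin2* had 0 counts. *Dkk3* and *Nkd2* are the genes whose MEC and macrophage points do not overlap.

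The spread of *Wif1* among the macrophage libraries ran beside that of some basal epithelial genes, but not of all. *Krt5*, a keratin of basal cells, was the gene whose pattern over the 10 libraries, each centered on its cell type, was most like that of *Wif1* among 18322 genes (Pearson's r of log2 CPM = 0.980), a description chosen as the highest of many. On the scale of both cell types, *Krt5* was at 142, 81.5, 32.7 and 6.55 CPM in *Cebpb*ΔM 4 to 7 and 40.7 and 11.9 CPM in WT 4 and 5. *Wif1* had the same order of these macrophage libraries, at 53.2, 24.4, 10.6 and 1.92 CPM in *Cebpb*ΔM and 17.7 and 4.05 CPM in WT. The summed basal markers were at 3168, 2030, 2058 and 816 CPM in *Cebpb*ΔM and 1270 and 915 CPM in WT. This sum broke the order of *Wif1*, since *Cebpb*ΔM 6 was above *Cebpb*ΔM 5 and WT 4. Among these markers *Myh11* and *Mylk* were highest in *Cebpb*ΔM 6, at 310 and 167 CPM, and the others in *Cebpb*ΔM 4. The MEC libraries did not share the order of *Krt5* and *Wif1*. *Krt5* was there at 298 and 327 CPM in *Cebpb*ΔM 1 and 3 and 357 and 252 CPM in WT 1 and 3. *Wif1* was at 29.3 and 36.9 CPM in *Cebpb*ΔM and 25.9 and 32.7 CPM in WT, lowest where *Krt5* was highest. The summed basal markers, at 6094 and 4842 CPM in *Cebpb*ΔM and 6580 and 5281 CPM in WT, had the reverse order of *Wif1*. All 8 basal markers had a positive log2 fold change between genotypes in macrophage libraries (median 1.06). None passed the QL test, the likelihood ratio test or DESeq2, with 1 at an unadjusted QL *P* under 0.05. The 9 macrophage markers were also all higher in *Cebpb*ΔM (median 0.61), and the 6 luminal and 8 fibroblast markers were all lower (medians −0.70 and −0.31). Of these, 0 passed the QL test. At an unadjusted *P* under 0.05 there were 6 macrophage, 4 luminal and 0 fibroblast markers, against 9.76% of all genes. DESeq2 called *Krt8*, *Krt18*, *C1qa* and *C1qc*, and the likelihood ratio test the same genes without *C1qa*. The part of these cell mixtures in the genotype values of *Wif1*, *Nkd1*, *Nkd2* and the other genes in macrophage libraries was not tested. In MECs the medians were −0.12 for basal, −0.053 for luminal and −0.29 for fibroblast markers, and 0.46 for the 4 macrophage markers tested. The summed macrophage markers were at 39.6 and 46.5 CPM in *Cebpb*ΔM MECs and 36.01 and 31.2 CPM in WT MECs, without overlap. The 4 tested did not share a direction, with log2 fold changes of 0.97 for *Csf1r*, 0.96 for *Lyve1*, −0.037 for *Mertk* and −0.21 for *Cd68*. The part of the macrophage markers in the MEC values was not tested. In these 4 lists 0 markers passed the QL test, and the likelihood ratio test and DESeq2 called *Dcn* alone. *Dcn* was higher in *Cebpb*ΔM (log2 fold change 0.96) and was 1 of the 2 fibroblast markers, of 8, with a positive value. An unadjusted *P* under 0.05 was found for 0, 1, 1 and 1 of the basal, luminal, fibroblast and macrophage markers, against 5.54% of all genes.

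**Figure D4:**
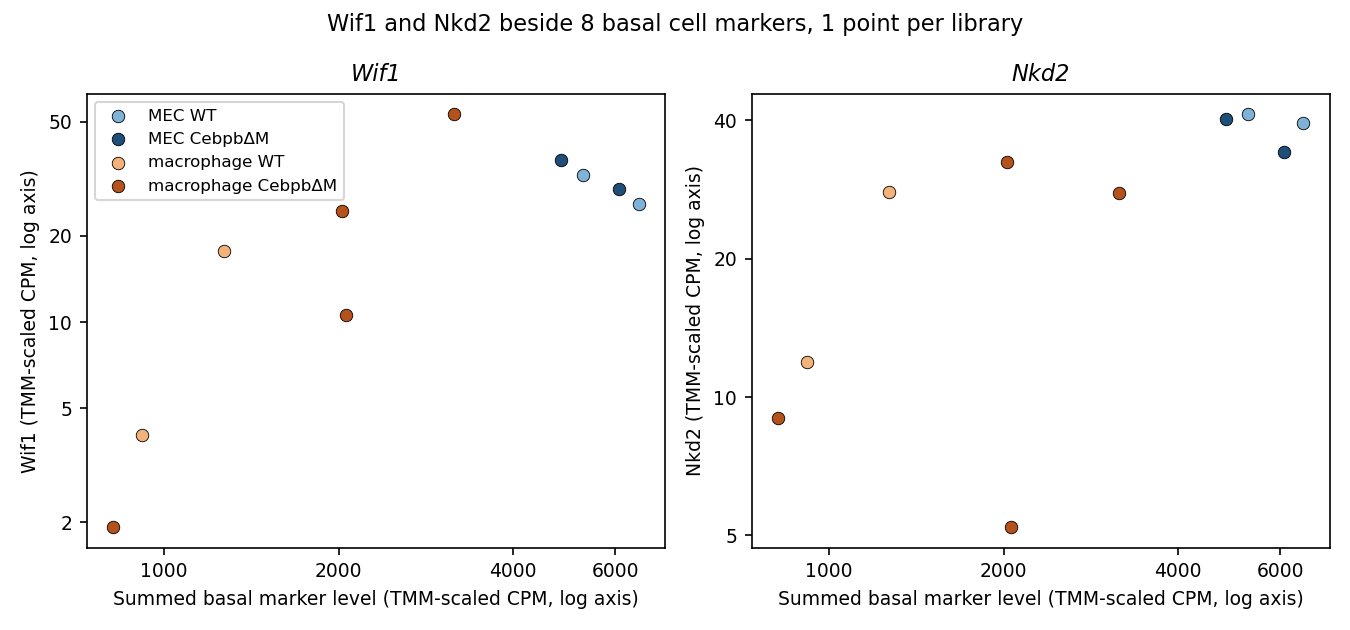
Level of *Wif1* (left) and *Nkd2* (right) against the summed level of 8 basal cell markers, both in TMM-scaled CPM on log axes, with 1 point per library. The macrophage libraries spread from 816 to 3168 CPM of basal markers. Among them *Wif1* is lowest (1.92 CPM) and highest (53.2 CPM) in the libraries with the fewest and the most. The MEC libraries hold more basal markers, at 4842 to 6580 CPM, with *Wif1* at 25.9 to 36.9 CPM.

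For the other genes the pattern most alike over the 10 libraries was that of *Knl1* for *Nkd2* (r = 0.981), *Tmem131l* for *Dkk3* (0.981), *Pex16* for *Ctnnbip1* (0.979), *Gm15821* for *Dkk2* (0.957), *Dedd2* for *Sfrp2* (0.944), *E130309D02Rik* for *Nkd1* (0.930) and *Deup1* for *Sfrp1* (0.895). *Knl1* encodes a protein of the kinetochore and *Pex16* a protein of peroxisome formation. The libraries of a cell type share their preparation, and no test was made of these likenesses.

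Antisense genes overlap *Sfrp2*, *Ctnnbip1* and *Axin2*. *Gm26771* shares 347 exon bases with *Sfrp2* on the opposite strand and had 167 to 551 counts, 34.3% to 59.2% of those of *Sfrp2*, and its pattern was the third most like that of *Sfrp2* (r = 0.929). *Gm13066* shares 720 exon bases with *Ctnnbip1* and had 76 to 187 counts, 12.7% to 43.2% of those of *Ctnnbip1*. In MECs *Gm13066* had 94 and 109 counts in *Cebpb*ΔM and 81 and 76 in WT, while *Ctnnbip1* had 739 and 529 counts in *Cebpb*ΔM and 233 and 267 in WT. In macrophage libraries *Gm13066* had 187, 163, 149 and 117 counts in *Cebpb*ΔM and 86 and 112 in WT. In both cell types its counts did not overlap between the genotypes and were higher in *Cebpb*ΔM, as for *Ctnnbip1* itself, and its part in the values of *Ctnnbip1* was not tested. *Gm11670* shares 209 exon bases with *Axin2* and had at most 7 counts. The authors counted with a strand setting, but whether the library kit kept the strand is not given in the sources used here, so reads of a gene and of its antisense partner may not be told apart.

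Other genes of the Wnt pathway, 90 in 8 lists, were counted beside the 10. In MECs 63 were tested and 0 passed the QL test. At an unadjusted *P* under 0.05 there were 9, against 5.54% of all genes. *Wnt10a* alone passed with the likelihood ratio test and with DESeq2, and 36 of the 63 had a positive log2 fold change (median 0.085). Those with an unadjusted *P* under 0.01 were 4 ligands, 1 receptor and 2 genes of the R-spondin system. *Wnt10a* was at 46.4 and 34.3 CPM in *Cebpb*ΔM and 20.4 and 17.9 CPM in WT (log2 fold change 1.07 ± 0.24, adjusted *P* = 0.152). *Wnt4*, the ligand known to act downstream of progesterone in the gland, was at 62.4 and 38.5 CPM in *Cebpb*ΔM and 28.4 and 22.9 CPM in WT (0.98 ± 0.27, adjusted *P* = 0.271). *Wnt5a*, a ligand that mostly signals without β-catenin, was lower in *Cebpb*ΔM, at 35.5 and 65.0 CPM against 99.9 and 91.5 CPM (−0.93 ± 0.27, adjusted *P* = 0.340). *Wnt6* (1.34 ± 0.41), the Wnt5a receptor *Ror1* (1.08 ± 0.29), the secreted Wnt enhancer *Rspo1* (1.002 ± 0.28) and the R-spondin receptor *Lgr6* (0.79 ± 0.21) had positive log2 fold changes, with adjusted *P* from 0.240 to 0.383. For all 7 the genotypes did not overlap, which their choice by *P* nearly fixes with 2 libraries each.

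In macrophage libraries 66 of the 90 genes were tested and 0 passed the QL test. At an unadjusted *P* under 0.05 there were 7, a share near the 9.76% of all genes. The likelihood ratio test called *Apc2* and *Wnt10b*, and DESeq2 called *Apc2*. *Apc2*, a paralog of the β-catenin destruction scaffold *Apc*, was at 3.61, 3.71, 5.38 and 1.98 CPM in *Cebpb*ΔM and at 0.157 and 0 CPM in WT, which are at or under 3 counts (adjusted *P* = 0.417). *Wnt2b* was at 2.51, 2.71, 2.22 and 0.804 CPM in *Cebpb*ΔM and 0.157 and 0.398 CPM in WT (adjusted *P* = 0.417). *Wnt10b* was at 0.351 to 0.444 CPM in *Cebpb*ΔM and 1.83 and 3.29 CPM in WT (log2 fold change −2.73 ± 0.53, adjusted *P* = 0.417). The levels of these 3 genes, chosen by *P*, did not overlap between genotypes. In the interaction 68 were tested and 0 passed the QL test. At an unadjusted *P* under 0.05 there were 5, against 5.25% of all genes. The likelihood ratio test called *Apc2* and *Wnt10b*, and DESeq2 called *Apc2*. In the QL test *Apc2*, *Wnt10b* and *Wnt4* had unadjusted *P*-values under 0.01 (adjusted *P* = 0.533, 0.940 and 0.940). For *Wnt4* the difference was 1.96 ± 0.53, with 11.3 to 30.8 CPM in *Cebpb*ΔM macrophage libraries against 33.5 and 38.3 CPM in WT.

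Between the cell types 23 of 68 pathway genes passed, 14 higher in MECs and 9 higher in macrophage libraries, beside the 47.4% of all genes given above. The ligands *Wnt10a* (log2 fold change 3.31 ± 0.36), *Wnt7b* (2.32 ± 0.26), *Wnt9a* (1.81 ± 0.45) and *Wnt5b* (1.79 ± 0.33) were higher in MECs, as were the receptors *Fzd10* (1.95), *Fzd3* (1.27) and *Ryk* (0.74), the R-spondin receptors *Lgr5* (2.13), *Lgr6* (1.17) and *Lgr4* (0.79), and *Axin1* (0.47), *Csnk1a1* (0.67) and *Myc* (0.87). The ligands *Wnt10b* (0 to 0.233 CPM in MECs and 0.341 to 3.14 CPM in macrophage libraries) and *Wnt2* (−2.35 ± 0.31), the receptors *Fzd4* (−2.88 ± 0.25) and *Lrp6* (−0.51), the antagonists *Sfrp4* (−2.48 ± 0.29) and *Sfrp5* (−0.99), and *Dact1* (−1.63), *Tcf7l1* (−1.17) and *Gsk3a* (−0.69) were lower in MECs. *Apc2* also passed as higher in MECs, but this held in WT alone, at 2.83 and 2.92 CPM in MECs against 0.150 and 0 CPM in macrophage libraries. In *Cebpb*ΔM libraries the mean level of *Apc2* was lower in MECs, at 1.10 and 1.90 CPM against 1.92 to 5.26 CPM. The adjusted *P* of the 23 genes ranged from 2.59e-06 to 0.0490. Of the 9 secreted antagonists tested, which include 5 of the 10 genes above, 1 was higher in MECs (*Dkk3*) and 4 were higher in macrophage libraries (*Dkk2*, *Sfrp2*, *Sfrp4* and *Sfrp5*).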

How the data were processed

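RNA of 4 MEC and 6 macrophage libraries was sequenced as paired ends from low-input libraries. The authors trimmed reads with Trimmomatic, mapped them to GRCm38 with HISAT2 and counted them on Ensembl release 100 genes with featureCounts (version 1.6.2; mapping quality of at least 10, reverse strand). They deposited these raw counts, not normalized.

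Genes under 300 nt and genes not above 1 CPM in at least 2 libraries were left out. Each cell type was fitted separately with edgeR (version 4.0.16, R 4.3.3), TMM scaling and the QL test, in place of the likelihood ratio test of the study's methods. The interaction and the cell types were fitted over 10 libraries, with the cell type contrast averaged over genotypes. *P*-values were BH adjusted over all genes tested. As alternatives, DESeq2 (version 1.42.0), the likelihood ratio test, the older QL test, relative log expression (RLE) scaling, filterByExpr, no filter beyond 1 count, the replicate number as a block, a joint fit, and leaving out each library were used. Log2 CPM used a prior count of 2. The 10 genes and the gene lists were chosen with earlier results of these data known. Pathway genes were named at an adjusted *P* of 0.05 or less, or at an unadjusted *P* under 0.01 where fewer than 3 passed. Promoters came from RefSeq. Replicate libraries differed by more than counting noise. Genotype deviations of same-numbered libraries had correlations of 0.106 in MECs and of 0.129 and −0.0865 in macrophages. Both MEC numbers give the same value, because the deviations of 2 libraries mirror each other. Such values cannot exclude pairs. The main test left the numbers out, and the replicate block used them as an alternative.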

Additional observations from a re-analysis of the deposited data

How the results depend on the processing

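In MECs, 0 of the 10 genes were called in the main test and 2 (*Nkd1* and *Ctnnbip1*) with the likelihood ratio test, with DESeq2 and with the replicate block. Leaving out one library gave 0 to 2 calls. Over all genes the MEC count was 8 in the main test, 179 with the likelihood ratio test, 161 with DESeq2 and 229 with the block. In macrophages and in the interaction the count among the 10 genes was 0 under every alternative run, the replicate block included. Between the cell types 4 genes were called, 2 within WT libraries, 1 within *Cebpb*ΔM libraries and 1 to 6 with one library left out. No paired analysis was possible for the cell types because the replicate numbers lie within a cell type. The cause of these differences was not tested.

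Directions of single genes that were not called turned over under some settings. With the replicate block the macrophage log2 fold changes were 0.66 for *Nkd2* and 0.12 for *Axin2*, and with replicates 4 and 5 alone they were 0.59 and 0.15. The block gave interaction values of −0.33 for *Axin2*, 0.47 for *Dkk2* and −0.067 for *Sfrp2*. Within WT libraries the cell type values were −0.27 for *Nkd1* and −0.31 for *Ctnnbip1*. With one library left out, the MEC values ranged from −0.25 to 0.043 for *Nkd2*, −0.0093 to 0.41 for *Wif1* and −0.43 to 0.60 for *Apcdd1*. The macrophage values ranged from −0.59 to 0.63 for *Nkd2* and −0.19 to 0.28 for *Sfrp2*. The interaction values ranged from −0.74 to 0.48 for *Nkd2*, −0.15 to 0.64 for *Axin2*, −0.80 to 0.32 for *Dkk2* and −0.037 to 0.73 for *Sfrp2*, and the cell type value of *Ctnnbip1* from −0.14 to 0.13. *Apcdd1* in MECs without *Cebpb*ΔM 1 or WT 1, and *Axin2* without macrophage *Cebpb*ΔM 4 or WT 4, were below the filter and had no value. The macrophage value of *Wif1* was 1.95 with the replicate block (adjusted *P* = 0.0512). *Axin2* and *Apcdd1* rest on few counts, and 3 of the 4 groups hold 2 libraries.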
